A study of Homo sapiens with 3 samples.

Results

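The 10 genes described here are BCL2 family regulators of apoptosis: the pro-survival genes BCL2, BCL2L1 and MCL1, the effectors BAX and BAK1, and the BH3-only genes BID, PMAIP1, BCL2L11, BBC3 and BIK. They were chosen by symbol, and each matched 1 of the 60554 genes in the count table. RNA came from KYSE30, a cell line established from a human squamous carcinoma of the esophagus, in 3 stable derivatives with 1 library each. One line carried shRNA 1 against the small nucleolar RNA SNORD12B, another carried shRNA 2 against it, and the third was the control. The genotype label of the control reads vector, whereas the protocol describes a scrambled shRNA with no target. All 3 lines grew in medium with 10% serum, took up lentiviral particles of a pLKO.1 blasticidin plasmid for 24 hours and were kept in 5 ug/mL blasticidin for 2 weeks, so the control went through infection and drug selection too. No label says whether a line was a clone or a pool, and none had a second culture.

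Proteins of this family meet at the outer mitochondrial membrane. BAX and BAK1 open it, which lets cytochrome c out and starts the caspases; BCL2, BCL2L1 (BCL-XL) and MCL1 hold them in check, and BH3-only proteins, induced or activated by different stresses, bind the pro-survival proteins and in some cases the effectors themselves. Squamous carcinoma cells, like other epithelial tumour cells, are known to rely often on MCL1 and BCL-XL.

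What the members share in sequence is the BH3 core, the short helix by which death-promoting members dock into the groove of the pro-survival ones. An in-frame search of 1 principal GENCODE 29 transcript per gene (GRCh38) looked for a leucine codon, 3 codons of any kind, a glycine or alanine codon and an aspartate codon. It found exactly 1 such run in each of the 10 members, always within 1 exon. The 27 coding bases that start there are given 5′ to 3′, with the leucine, glycine or alanine, and aspartate codons in capitals, since they show what unites genes of opposite function.
BCL2, chr18:63318352-63318378 on the minus strand: CTCcgccaggccGGCGACgacttctcc
BCL2L1, chr20:31721925-31721951 on the minus strand: CTGagggaggcaGGCGACgagtttgaa
MCL1, chr1:150578868-150578894 on the minus strand: TTAcgacgggttGGGGATggcgtgcag
BAX, chr19:48955787-48955813 on the plus strand: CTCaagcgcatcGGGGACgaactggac
BAK1, chr6:33575390-33575416 on the minus strand: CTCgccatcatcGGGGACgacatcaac
BID, chr22:17739418-17739444 on the minus strand: CTCgcccaggtcGGGGACagcatggac
PMAIP1, chr18:59902673-59902699 on the plus strand: CTCaggagatttGGAGACaaactgaac
BCL2L11, chr2:111150103-111150129 on the plus strand: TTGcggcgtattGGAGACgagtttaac
BBC3, chr19:47226582-47226608 on the minus strand: CTGcggcggatgGCGGACgacctcaac
BIK, chr22:43127716-43127742 on the plus strand: CTGgcctgcatcGGGGACgagatggac
Glycine stood at the variable place in 9 members and alanine in BBC3. The run is no mark of the family by itself, since 24.7% of 19527 coding genes searched in the same way held at least 1, over a median coding length of 426 codons. GC content of the 27 bases ranged between 44.4% in PMAIP1 and 74.1% in BCL2.

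Before any direction is given, the libraries were checked against their labels. Total counts lay between 15146805 and 17336936, and mitochondrial genes took 3.94% to 4.6% of them. SNORD12B (ENSG00000222365.1) had 15 counts with the label shRNA 1, 1 count with the label shRNA 2 and 7 counts in the control. The first lay above the control, against its label, but its ratio of 2.17 (95% exact interval 0.831 to 6.275) was within counting error. The ratio of the second was 0.126 (0.0028 to 0.982) and rests on 1 count. So few reads of a short RNA can settle the knockdown in neither library. Every direction below carries this limit, and for the library labelled shRNA 1 the count also lay on the unexpected side. Of 9 squamous epithelial markers, EPCAM, CDH1 and DSP were abundant in all libraries while KRT5 had at most 3 counts. The 9 summed to 1183 CPM with the label shRNA 1, 1644 CPM with the label shRNA 2 and 1853 CPM in the control. Of these, 4 were at least 1.5-fold lower with both labels: SOX2, KRT6A, KRT17 and KRT14. The same held for 619 of 17801 tested genes. SOX2 stood at 12.2 (label shRNA 1), 38.9 (label shRNA 2) and 104.1 CPM (control), KRT17 at 15.45 (label shRNA 1), 52.95 (label shRNA 2) and 94.6 CPM (control), KRT6A at 90.1 (label shRNA 1), 51.4 (label shRNA 2) and 174.7 CPM (control), and KRT14 at 11.5 (label shRNA 1), 10.75 (label shRNA 2) and 19.0 CPM (control). SOX2, KRT6A and KRT17 had an unadjusted p below 0.05 by edgeR's quasi-likelihood test, against 1.33% of tested genes, and none passed after adjustment. Whether these lower marker levels have a part in any difference between members was not tested. The fibroblast markers DCN, LUM, PDGFRA and COL1A2 were at 0 counts throughout, which allows up to 3 counts per library. CPM are counts relative to the library total after TMM scaling. Bulk RNA cannot tell fewer cells with a transcript and less of it per cell apart.

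Of the 10 members, BBC3 alone lay at least 1.5-fold from the control, and it did so on opposite sides in the shRNA libraries. BID stood about equally far below the control with either shRNA, BCL2L1 was higher with the label shRNA 2, and MCL1 was lower with the label shRNA 1. PMAIP1, BAK1, BAX and BCL2 had count ratios to the control between 0.877 and 1.19. In edgeR's quasi-likelihood test of both shRNA lines together against the control, 0 of 10 members and 0% of the 17801 tested genes passed the adjusted threshold of 0.05. Without adjustment 0 members and 1.33% of all tested genes had p below 0.05. DESeq2, limma-voom and edgeR's likelihood ratio test called 0 members as well, beside 15, 1 and 38 genes in all. The only replicate spread behind these p-values is that between 2 lines with different shRNAs, and that spread is wide. For each gene the quasi-likelihood test also draws on the spread over all genes, with 1 residual and 8.35 prior degrees of freedom. A count of 0 therefore does not show that members were equal between lines.

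Per library, fold thresholds describe the members without a test. At least 1.5-fold from the control in either direction was 1 of 10 members with the label shRNA 1, against 23.5% of tested genes, and 1 of 10 with the label shRNA 2, against 19.3%. In the same direction with both shRNAs it was 0 members, against 6.75% of tested genes; both comparisons share the 1 control. Exact 95% intervals of the count ratio, which cover counting error only, excluded 1 for 6 members with the label shRNA 1 and for 4 with the label shRNA 2. The same held for 49.7% and 47.4% of tested genes, so at this depth an interval off 1 was common and is no result about the family.

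**Figure D1:**
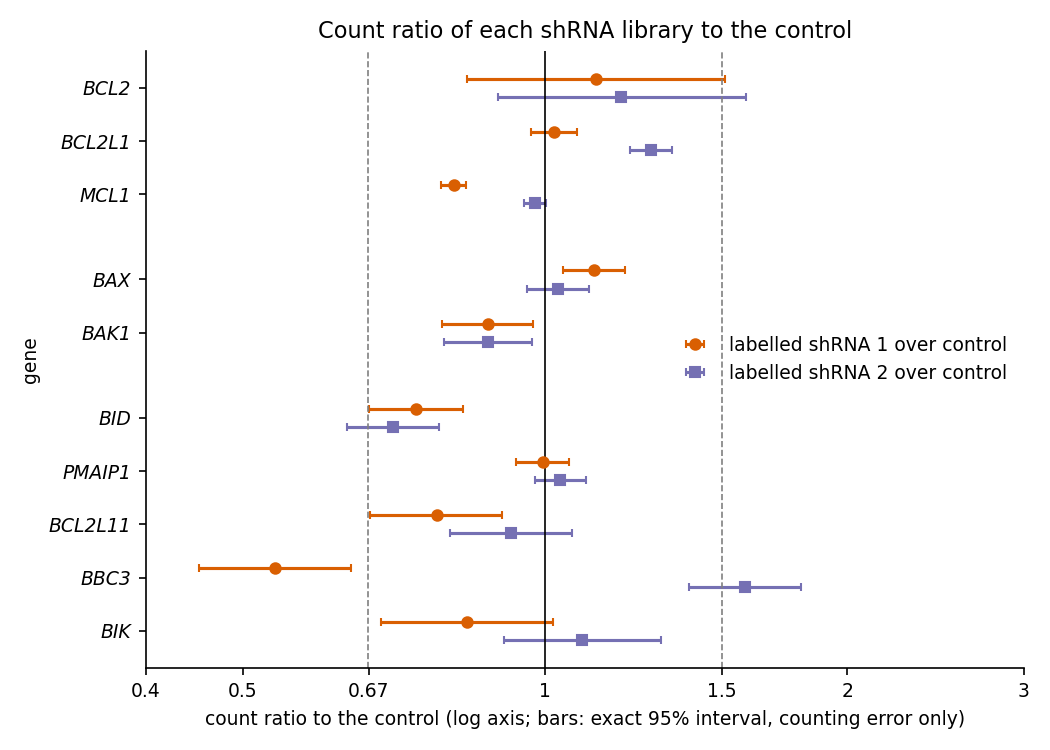
Count ratio of each shRNA library to the control on a log axis for the 10 members, grouped as pro-survival, effector and BH3-only genes; bars are exact 95% intervals of counting error and dashed lines mark 1.5-fold either way. BBC3 is the member whose points (0.539 and 1.58) lie beyond the dashed lines, on opposite sides.

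Among pro-survival genes, BCL2L1 (ENSG00000171552.12, chr20:31664452-31723989, hg38, minus strand), which encodes BCL-XL, stood at 183.9 CPM in the library labelled shRNA 1, at 229.6 CPM in that labelled shRNA 2 and at 180 CPM in the control. The first and the last nearly coincided, and the shRNA 2 library was above both. Count ratios to the control were 1.02 (95% exact interval 0.969 to 1.08) for shRNA 1 and 1.275 (1.215 to 1.34) for shRNA 2. For both lines together the log2 fold change was 0.20 (SE 0.32, adjusted p = 1 by edgeR's quasi-likelihood test). The antisense gene ABALON covers 43% of the exonic bases of BCL2L1 and had 1105 (label shRNA 1), 1661 (label shRNA 2) and 1106 counts (control). If counts of BCL2L1 were spread evenly over its exonic bases, that overlap would hold 1201.4 (label shRNA 1), 1715.8 (label shRNA 2) and 1188.1 of them (control). ABALON counts were close to this in each library. The file headers give strand option 1 for the counting, but no source used here says whether the libraries kept the strand. Reads of the pair therefore cannot be told apart here.

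MCL1 (ENSG00000143384.12, chr1:150574551-150579738, minus strand), a short-lived protein that neutralises BAK1 and several BH3-only proteins, was the most abundant member. It stood at 572 CPM with the label shRNA 1, 689 CPM with the label shRNA 2 and 705.2 CPM in the control. The shRNA 1 library was the low one, with a count ratio of 0.811 (0.7885 to 0.834), while the shRNA 2 library lay within counting error of the control at 0.977 (0.952 to 1.003). The TPM measure scales each library by its sum of counts per length, not by its total count, and carries no TMM factor. On it the shRNA 2 library and the control changed order, at 481 TPM with the label shRNA 2 and 478.1 TPM in the control. BCL2 (ENSG00000171791.12), the founding member, was scarce, with 99 and 120 counts under the labels shRNA 1 and shRNA 2 and 89 counts in the control. Its ratios of 1.12 (0.835 to 1.51) and 1.19 (0.898 to 1.585) left no difference detectable at this depth.

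The effectors differed little. BAX (ENSG00000087088.19, chr19:48954815-48961798, plus strand) stood at 106.9 CPM in the library labelled shRNA 1, 98.4 CPM in that labelled shRNA 2 and 95.6 CPM in the control. Its ratios to the control were 1.12 (1.04 to 1.2) and 1.03 (0.96 to 1.105). BAK1 (ENSG00000030110.12, chr6:33572547-33580293, minus strand) had 44.6 CPM under either shRNA label and 50.8 CPM in the control. The shRNA libraries coincided and the control lay above them, with ratios of 0.877 (0.79 to 0.973) and 0.8775 (0.7935 to 0.970). Reads of BAK1 may in part belong to its pseudogene BAK1P1, which was listed with 4 (label shRNA 1), 5 (label shRNA 2) and 9 counts (control), and GGNBP1 on the opposite strand shares 4.1% of its exonic bases. For the pair of lines the log2 fold changes were 0.10 (SE 0.31) for BAX and -0.19 (SE 0.34) for BAK1, each with adjusted p = 1 by edgeR.

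BBC3, which encodes PUMA, a BH3-only protein that stress-activated transcription factors induce and that can bind all pro-survival members, varied most among the 10. Its gene (ENSG00000105327.15) lies on chr19:47220822-47232766, minus strand. It had 200 counts (13.15 CPM) in the library labelled shRNA 1, 672 counts (38.6 CPM) in that labelled shRNA 2 and 375 counts (24.4 CPM) in the control. The control thus sat between the shRNA libraries. Its count ratio to the control was 0.539 (0.4515 to 0.641) for shRNA 1 and 1.58 (1.39 to 1.80) for shRNA 2. Averaged over both lines the fold change was near 0 on the log2 scale (0.09, SE 0.56, adjusted p = 1 by edgeR), a mean that describes neither library. With limma-voom it was -0.10. The microRNA gene MIR3190 on the opposite strand covers 2.5% of the exonic bases of BBC3 and had at most 10 counts.

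BID (ENSG00000015475.18, chr22:17734138-17774770, minus strand), which links death receptors to mitochondria once caspase-8 has cut it, showed the largest shift that had the same sign in both shRNA libraries. Its levels were 38.4 CPM with the label shRNA 1, 36.45 CPM with the label shRNA 2 and 51.6 CPM in the control. The shRNA libraries lay close together and below the control, at ratios of 0.744 (0.667 to 0.829) and 0.706 (0.635 to 0.785). The log2 fold change of the pair was -0.46 (SE 0.34), with unadjusted p = 0.202 and adjusted p = 1 by edgeR's quasi-likelihood test, the smallest unadjusted p among the members.

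PMAIP1 (ENSG00000141682.11), which encodes NOXA, a BH3-only partner of MCL1, was the most even of the BH3-only genes, at 139.2 CPM in the library labelled shRNA 1, 145 CPM in that labelled shRNA 2 and 140 CPM in the control. BCL2L11 (ENSG00000153094.21), which encodes BIM, a BH3-only protein held down by growth factor signalling, had 308 counts with the label shRNA 1, 418 with the label shRNA 2 and 399 in the control. The shRNA 1 library was low, at a ratio of 0.780 (0.6698 to 0.907), and the shRNA 2 library was not separable from the control, at 0.925 (0.805 to 1.06). BIK (ENSG00000100290.2), a BH3-only protein of the endoplasmic reticulum, had 188 (label shRNA 1), 280 (label shRNA 2) and 227 counts (control), and both of its intervals against the control, 0.686 to 1.02 and 0.911 to 1.30, included 1.

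Set side by side, the roles did not part cleanly. The median log2 ratio to the control of the 3 pro-survival genes was 0.03 with the label shRNA 1 and 0.25 with the label shRNA 2. For the 7 pro-death genes (effectors and BH3-only together) it was -0.26 and 0.04, and for all tested genes 0.012 and -0.002. With the label shRNA 1, 6 of 7 pro-death genes and 1 of 3 pro-survival genes lay below the control, against 48.5% of tested genes. With the label shRNA 2 it was 3 of 7 and 1 of 3, against 50.2%. All 5 BH3-only genes were below the control with the label shRNA 1, whereas 3 of 5 were above it with the label shRNA 2, although PMAIP1 and BIK lay within counting error in both.

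Levels per length, which allow genes to be compared, spanned more than 2 orders of magnitude. In TPM (counts over the exonic length in the table, scaled to the same sum in each library), MCL1 led with 404.1 TPM in the library labelled shRNA 1, 481 TPM in that labelled shRNA 2 and 478.1 TPM in the control. PMAIP1 and BCL2L1 followed and changed places: PMAIP1 was ahead with the label shRNA 1, at 192.3 TPM against 171.3 TPM of BCL2L1, and in the control, at 185.6 against 160.9 TPM, while BCL2L1 was ahead with the label shRNA 2, at 211.4 against 198 TPM. BAX came next at 127.6 (label shRNA 1), 116.1 (label shRNA 2) and 109.5 TPM (control) and BAK1 after it at 62.2 (label shRNA 1), 61.5 (label shRNA 2) and 68.1 TPM (control). BIK, BID, BBC3 and BCL2L11 filled the range between 9.39 and 51.5 TPM, and BBC3 moved within it, below BID with the label shRNA 1 and in the control but above BID with the label shRNA 2. BCL2 was lowest in all 3 libraries, at 1.71 (label shRNA 1), 1.79 (label shRNA 2) and 1.46 TPM (control). The exonic length used is that of all annotated exons of a gene together, so a gene with a long alternative exon that these cells do not use appears lower than it is.

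**Figure D2:**
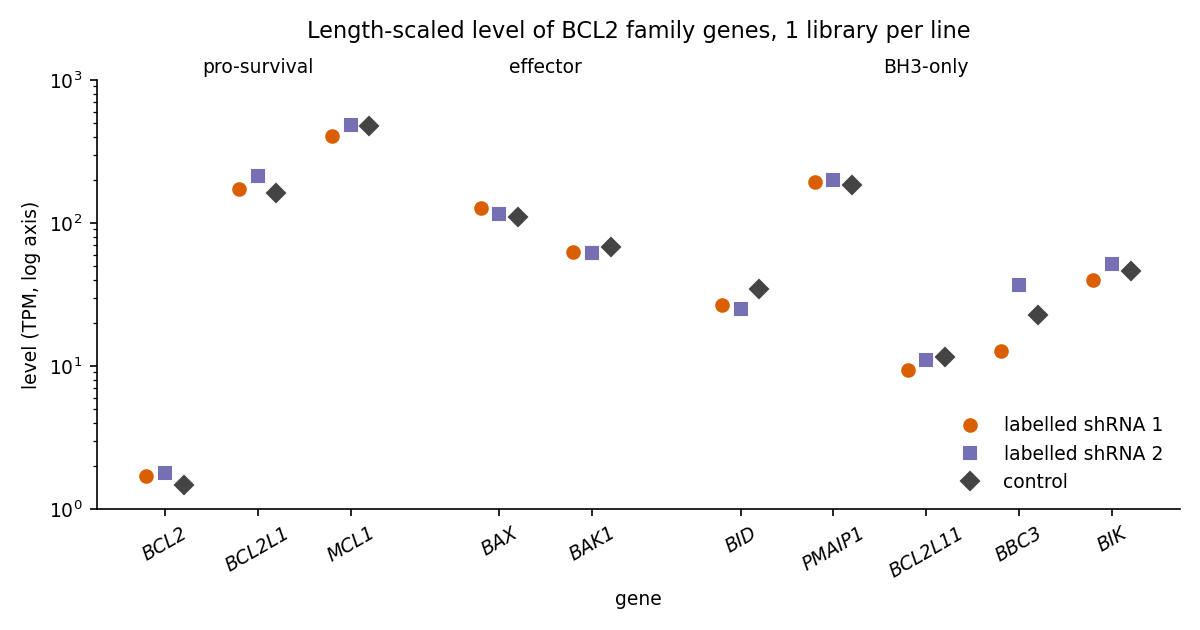
Level of the 10 members in TPM (vertical log axis) in the library labelled shRNA 1 (circles), that labelled shRNA 2 (squares) and the control (diamonds), 1 library each and therefore without error bars. MCL1 is highest, BCL2 lowest, and the symbols of BBC3 are the furthest apart.

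Summed over genes, pro-survival RNA amounted to 577.1 TPM with the label shRNA 1, 694.2 TPM with the label shRNA 2 and 640.5 TPM in the control. The 7 pro-death genes together gave 471 (label shRNA 1), 500.3 (label shRNA 2) and 477.9 TPM (control). The pro-survival share of the sum of all 10 was thus 55.1% (label shRNA 1), 58.1% (label shRNA 2) and 57.3% (control). The shRNA libraries lay on either side of the control and the difference of their mean to it, -0.68 percentage points, was smaller than the distance between them. MCL1 alone made up 38.55% (label shRNA 1), 40.3% (label shRNA 2) and 42.75% (control) of the sum. With MCL1 left out, the share in the shRNA libraries was on average 3.01 percentage points above that in the control. This mean does not show that the shRNA libraries shifted alike. BCL2L1, then the larger of the pro-survival genes left, stood at 171.3 (label shRNA 1), 211.4 (label shRNA 2) and 160.9 TPM (control). Among the pro-death genes PMAIP1 took 40.8% (label shRNA 1), 39.6% (label shRNA 2) and 38.8% (control). RNA shares say nothing on protein, which for MCL1 and PMAIP1 turns over fast.

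**Figure D3:**
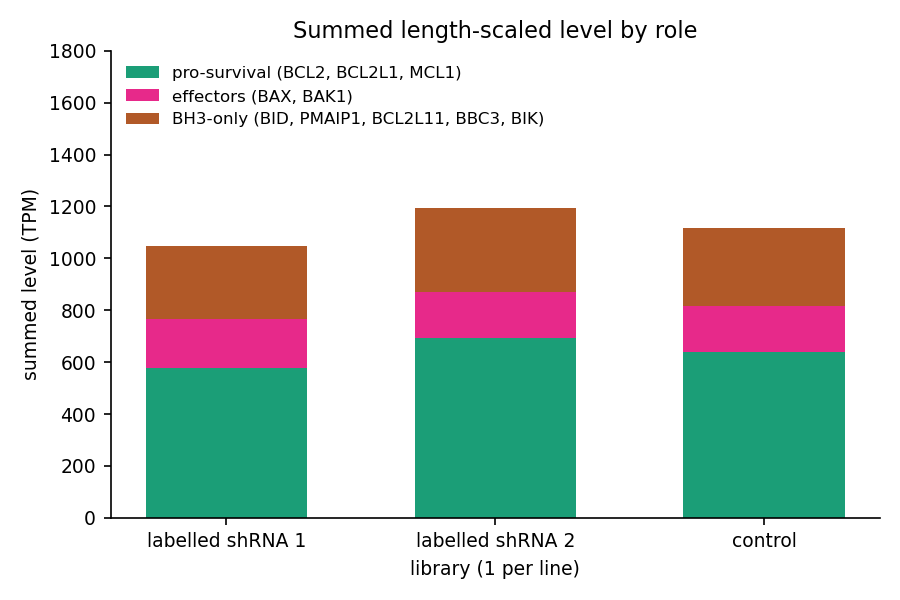
Summed TPM of the 10 members by role in the libraries labelled shRNA 1 and shRNA 2 and the control, 1 library each, with pro-survival genes at the bottom, effectors in the middle and BH3-only genes on top. The pro-survival part is 577.1 (label shRNA 1), 694.2 (label shRNA 2) and 640.5 TPM (control) high in that order.

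A comparison that leaves the control out set the shRNA libraries against each other, the library labelled shRNA 1 over that labelled shRNA 2, again with no test. BBC3 had a count ratio of 0.340 (0.289 to 0.399) and a log2 ratio of -1.55, and 3.75% of tested genes lay at least as far from equality. It was the 1 member past 1.5-fold, against 30.6% of tested genes, and past 2-fold, against 12.2%. The other 9 members had log2 ratios between -0.38 for BIK and 0.12 for BAX. With 8 members higher under the label shRNA 2, only BAX and BID were lower there, against 50% of tested genes. Of all these, BCL2, PMAIP1, BID and BAK1 lay within counting error, and BAK1 was level at a count ratio of 0.9993. Intervals of counting error excluded 1 for BCL2L1, MCL1, BAX, BCL2L11, BBC3 and BIK, 6 of 10, against 56.5% of tested genes.

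**Figure D4:**
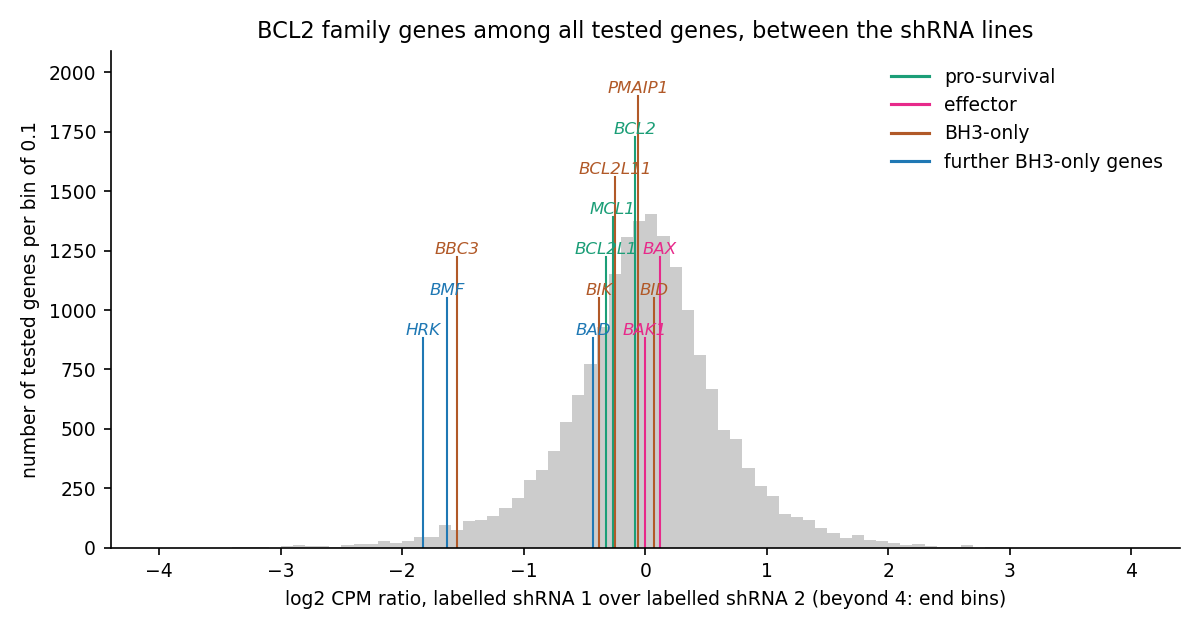
Histogram (grey) of the log2 CPM ratio of the library labelled shRNA 1 over that labelled shRNA 2 for all 17801 tested genes, with lines at the values of the 10 members and of BAD, BMF and HRK. BBC3 (-1.55), BMF (-1.63) and HRK (-1.83) lie in the left tail, and the other lines near the centre.

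The wider family was read from a list of 13 further members, of which 10 passed the count filter. In the library labelled shRNA 1 the list's median log2 ratio to the control was -0.37 and 9 of 10 lay below it, against 48.5% of tested genes, whereas with the label shRNA 2 the median was 0.03 and 5 of 10 lay below, against 50.2%. BMF, a BH3-only protein released on loss of attachment, stood at 5.655 CPM with the label shRNA 1, 17.8 CPM with the label shRNA 2 and 13.7 CPM in the control. HRK, a BH3-only protein best known from neurons, had 21 (label shRNA 1), 91 (label shRNA 2) and 65 counts (control). Both had their low value in the same library as BBC3, and both are named here after their values were seen. Their ratios to the control were 0.412 (0.317 to 0.5315) and 0.326 (0.1895 to 0.541) for shRNA 1, against 1.29 (1.08 to 1.55) and 1.24 (0.8895 to 1.73) for shRNA 2. BAD, a BH3-only protein switched off by growth factor kinases, stood at 49.1 CPM with the label shRNA 1, 66.2 CPM with the label shRNA 2 and 67.8 CPM in the control. Counting BBC3, BID, PMAIP1, BCL2L11, BIK, BAD, BMF and HRK together, 8 of 8 BH3-only genes were below the control with the label shRNA 1, against 48.5% of tested genes, and 3 of 8 with the label shRNA 2, against 50.2%. This group of 8 was put together with their values known, so its count is a description only. BNIP3, a mitochondrial protein of mitophagy that hypoxia induces, had the largest shift in the same direction with both shRNAs among genes of the list with at least 1 CPM, at 101.9 (label shRNA 1), 94.5 (label shRNA 2) and 147.8 CPM (control) and a log2 fold change of -0.59 (SE 0.30, adjusted p = 1 by edgeR). BOK, a relative of the effectors, stood at 12.8 (label shRNA 1), 13.4 (label shRNA 2) and 13.8 CPM (control). The 1 gene of the list at least 1.5-fold off in the same direction with both shRNAs, BCL2L14, had 0 (label shRNA 1), 5 (label shRNA 2) and 11 counts (control), too few for a firm value. Among tested genes 6.75% were that far off in the same direction with both. The pro-survival gene BCL2A1 had 0 (label shRNA 1), 0 (label shRNA 2) and 2 counts (control), and BCL2L10 and BCL2L15 at most 2.

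Downstream of the mitochondria, 11 genes of the apoptosome and caspases were all measured. At least 1.5-fold from the control in the same direction with both shRNAs were 0 of them, against 6.75% of tested genes. With so few genes in a list, a count of 0 is no result about it. APAF1, the scaffold of the apoptosome, stood at 32.75 CPM with the label shRNA 1, 33.5 CPM with the label shRNA 2 and 41.7 CPM in the control. The initiator caspases CASP2 and CASP8 stood at 37.35 (label shRNA 1), 37.5 (label shRNA 2) and 41.3 CPM (control) and at 33.7 (label shRNA 1), 30.9 (label shRNA 2) and 28.6 CPM (control). CYCS, cytochrome c itself, stood at 420.3 (label shRNA 1), 183.9 (label shRNA 2) and 245.3 CPM (control); it is named after its values were seen, and its many processed pseudogenes make the count uncertain. The inhibitors of apoptosis and their antagonists, 7 genes, had medians of 0.11 and 0.27 on the log2 scale, with 2 of 7 below the control under the label shRNA 1, against 48.5% of tested genes, and 1 of 7 under the label shRNA 2, against 50.2%. XIAP, which blocks caspases, stood at 82.1 (label shRNA 1), 104.2 (label shRNA 2) and 75.1 CPM (control), and BIRC2 (cIAP1) at 45.8 (label shRNA 1), 63.2 (label shRNA 2) and 41.6 CPM (control). BIRC6, a very large ubiquitin ligase, stood at 111.9 (label shRNA 1), 122.2 (label shRNA 2) and 95.6 CPM (control), and BIRC5 (survivin), which also serves in mitosis, at 182.9 (label shRNA 1), 154.1 (label shRNA 2) and 197.7 CPM (control). Of 12 death receptor genes 11 passed the filter, with medians of -0.34 and 0.20. At least 1.5-fold off in the same direction with both shRNAs were 0, against 6.75% of tested genes. TNFRSF10D, a decoy receptor for TRAIL, stood at 54.9 (label shRNA 1), 47.2 (label shRNA 2) and 74.3 CPM (control) and TNFRSF10B, the death receptor DR5, at 113.6 (label shRNA 1), 128.1 (label shRNA 2) and 158.8 CPM (control). FAS stood at 13.6 (label shRNA 1), 15.1 (label shRNA 2) and 17.7 CPM (control) and the adaptor kinase RIPK1 at 32.15 (label shRNA 1), 34.0 (label shRNA 2) and 29.5 CPM (control). Among 5 mitochondrial partners VDAC2, the channel that BAK1 binds, stood at 162 (label shRNA 1), 142.4 (label shRNA 2) and 173.7 CPM (control), and BECN1, an autophagy protein that BCL2 binds, at 66.7 (label shRNA 1), 82.7 (label shRNA 2) and 65.0 CPM (control). The 4 genes of MCL1 protein turnover had medians of -0.06 and 0.16. Over all of these lists edgeR's test called 0 genes after adjustment, as it did over all tested genes.

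**Figure D5:**
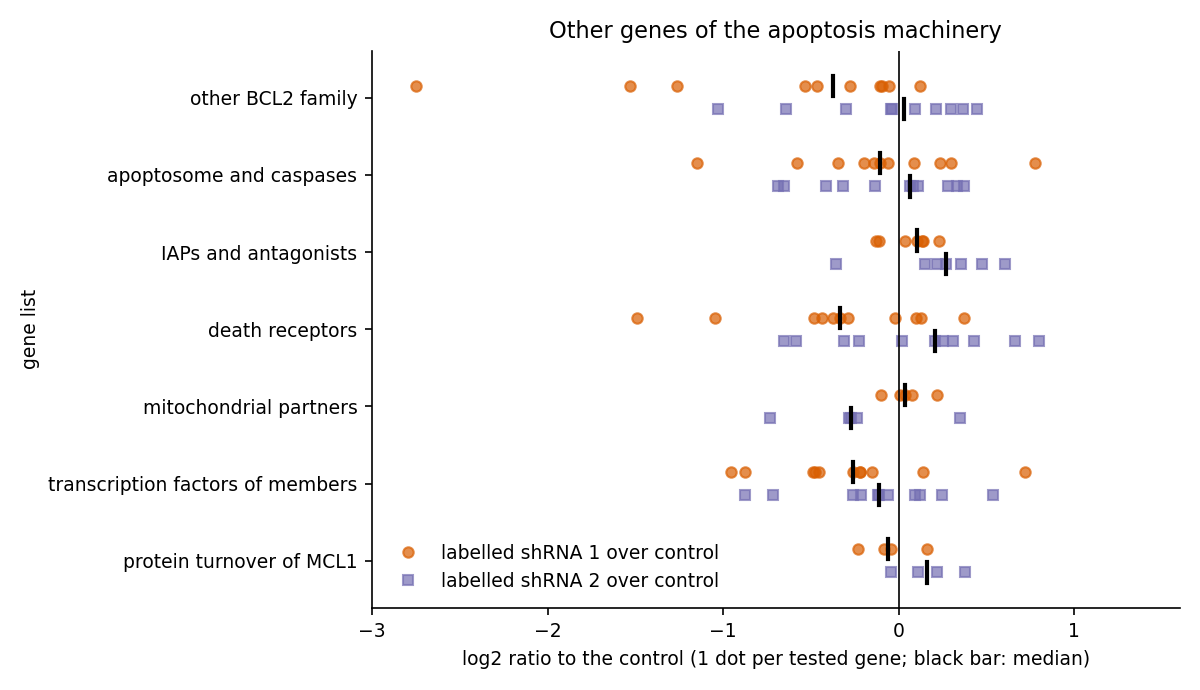
Log2 CPM ratio to the control (horizontal axis) of the tested genes in 7 lists of the apoptosis machinery, for the libraries labelled shRNA 1 (circles) and shRNA 2 (squares), with black bars at list medians. For the other BCL2 family genes the medians are -0.37 and 0.03; both ratios share the 1 control library.

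Transcription factors known to act on the members were listed as well, 11 in number, with medians of -0.26 and -0.11. At least 1.5-fold off in the same direction with both shRNAs were 0 of them, against 6.75% of tested genes. TP63 stood at 80.55 (label shRNA 1), 135 (label shRNA 2) and 156.6 CPM (control), TP73 at 9.14 (label shRNA 1), 7.70 (label shRNA 2) and 12.8 CPM (control), and FOXO1, which can induce BCL2L11 and BBC3, at 17.95 (label shRNA 1), 27.5 (label shRNA 2) and 33 CPM (control). DDIT3 (CHOP), a stress factor reported to induce BCL2L11 and BBC3, stood at 20.1 (label shRNA 1), 41.05 (label shRNA 2) and 28.3 CPM (control). Its lowest and highest values were in the same libraries as those of BBC3. That order was common, with 4 of the 11 factors and 3824 of 17801 tested genes below the control under the label shRNA 1 and above it under the label shRNA 2. E2F1, which drives entry into S phase, had the opposite order, at 56.35 (label shRNA 1), 18.6 (label shRNA 2) and 34.2 CPM (control). DDIT3 and E2F1 were named after their values were seen. The endothelial markers PECAM1, VWF and CDH5 summed to 0.921 CPM with the label shRNA 1, 5.81 CPM with the label shRNA 2 and 3.71 CPM in the control. The sum came mostly from CDH5, which had the order of BBC3. VWF did not have that order, at 1 (label shRNA 1), 9 (label shRNA 2) and 17 counts (control). PECAM1 had 0 (label shRNA 1), 1 (label shRNA 2) and 0 counts (control). Of the leukocyte markers, PTPRC had 0 (label shRNA 1), 1 (label shRNA 2) and 0 counts (control), CD3E had 0 (label shRNA 1), 0 (label shRNA 2) and 3 counts (control), and CD68 had 17 (label shRNA 1), 32 (label shRNA 2) and 27 counts (control). The part that any of these has in the level of BBC3 was not tested.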

How the data were processed

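The deposited file is 1 table of raw counts per gene and the exonic length of each gene. Per the file headers the authors counted primary alignments with featureCounts 1.6.4 against an hg38 annotation, with strand option 1. The tools and build named in the submitters' processing notes are TopHat2, HTSeq and hg19, unlike those headers. The sources used here name no library kit. All 52179 identifiers shared with GENCODE 29 in the same version had the same position, so coordinates are in hg38. Symbols came from a name table (56558 of 60554 identifiers matched).

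The tests ran in edgeR 4.0.16 under R 4.3.3: filterByExpr (17801 genes, all 10 members among them), TMM factors 1.004, 1.003 and 0.993 (shRNA 1, shRNA 2, control), and the two-sided quasi-likelihood F test with Benjamini-Hochberg adjustment over all tested genes, threshold 0.05. The fit had 1 residual and 8.35 prior degrees of freedom, with the assumption that the single control varies like the shRNA lines. The SE is the absolute log2 fold change over the square root of F. Ratios of single libraries are counts over TMM-scaled totals, with exact conditional 95% intervals; their log2 values use a prior count of 2. Alternatives used DESeq2 1.42.0 and limma 3.58.1 (voom), other scalings, filters and prior counts, and leaving out each shRNA library.

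Members and gene lists were chosen with earlier results of these data known. The text gives all members. For each other list the naming rule takes up to 4 genes with at least 1 CPM in some library, ranked by the smaller of 2 same-direction log2 ratios; genes outside it are marked in the text where chosen by value. Some genes of the lists are not reported here by name. Sequences were read from GENCODE 29 transcripts.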

Additional observations from a re-analysis of the deposited data

Results flagged for a closer look

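A gene is given here where the libraries labelled shRNA 1 and shRNA 2 lay at least 1.5-fold from the control on opposite sides with both exact count intervals off 1. The difference between the lines was not tested, since each has 1 library. BBC3 had log2 ratios to the control of -0.89 with the label shRNA 1 and 0.66 with the label shRNA 2. TNFSF10, which encodes the death ligand TRAIL, had -1.04 and 0.80 (118 and 490 counts, against 248 in the control). E2F1 had 0.72 and -0.88. CDH5 had -1.48 and 0.97, on 13 and 91 counts against 40 in the control.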

How the results depend on the processing

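The number of members called by a test was 0 under every scaling, test and filter tried: DESeq2 size factors, library totals alone, DESeq2's Wald test, limma-voom, edgeR's likelihood ratio test, no filter and a mean of at least 5 CPM. Over all genes the quasi-likelihood test called 0 with TMM and with the 5 CPM filter, 2 with DESeq2 size factors, 1 with library totals and 41 with no filter; DESeq2 called 15, limma-voom 1 and the likelihood ratio test 38. With either shRNA library left out no test is possible; 1 member and 3444 to 4192 genes then lay at least 1.5-fold from the control. Leaving out a shRNA library gave the pro-survival median log2 ratios of 0.0306 to 0.247 (0.19 with both). Without MCL1 the share difference, as a mean over the shRNA libraries, was 3.01 percentage points. The cause was not tested for either. BBC3 (0.09 by edgeR's fit) reversed to -0.10 by limma-voom. The mean of the library ratios is another measure than the fit, and was -0.11 with a prior count of 0.5 and -0.11 with 5. Its sign thus differed from that of the fit by the measure and not by the prior count. With 1 library left out BBC3 ranged between -0.89 and 0.66. PMAIP1 then ranged between -0.00779 and 0.0509 and BIK between -0.26 and 0.12. No paired analysis was possible because the control has 1 library, so the groups share fewer than 2 replicate numbers. At 99 to 120 counts with the shRNA labels and 89 in the control, depth left both intervals of BCL2 including 1.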
